A study of Mus musculus with 9 samples.

Results

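The 9 genes Ace, Spn, Itgal, Eno3, Pou2f2, Adgre4, Cd9, Fabp4 and Cd300e are used as markers of non-classical monocytes, and they were chosen by name out of the 26770 gene rows of the expression table. All 9 were found, each in a single row, and all 9 passed the filter on low counts that left 15447 genes for testing. RNA was sequenced from wild-type mouse monocytes prepared from spleen, in 3 groups of 3 libraries. The first group was primed with low-dose lipopolysaccharide (LPS, a cell wall component of Gram-negative bacteria sensed by Toll-like receptor 4) and then given the aldehyde octanal at 20 µM, with 18, 19 and 20 hours in the labels of replicates 1, 2 and 3 and 18 hours in the series text. The second group received LPS at 40 ng/ml for 5 hours, and the third was left untreated apart from the solvent DMSO, diluted 1 to 1000 (1001 and 1002 in the labels of replicates 2 and 3). The labels name no solvent for the other groups and no equal culture time, so octanal, solvent and hours in culture cannot be told apart. They give no age, sex, strain or sort. Nothing in them ties replicates to different animals or cultures, so p-values measure the spread between these libraries, which may be technical.

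Mouse monocytes circulate as classical and non-classical cells. Classical monocytes carry Ly6C and CCR2 and enter inflamed tissue, whereas non-classical monocytes, low in Ly6C and high in CX3CR1 and CD43, crawl along the inner wall of vessels, held there by the integrin LFA-1. The spleen holds a reservoir of undifferentiated monocytes. In mice the orphan nuclear receptor Nr4a1, which the series title names, is required for non-classical monocytes to form and survive. Of the members, Spn (CD43, a large sialylated surface mucin), Itgal (the alpha chain of LFA-1), Cd9 (a tetraspanin), Adgre4 (an adhesion G protein-coupled receptor of the F4/80 family) and Cd300e (an activating immunoglobulin-like receptor) are surface proteins. Ace is the peptidase that makes angiotensin II, Eno3 is the enolase isoform best known from muscle, Fabp4 is a cytosolic fatty acid carrier and Pou2f2 encodes the octamer-binding transcription factor OCT2. Several are made by other cells too: Spn and Itgal by T and NK cells, Pou2f2 by B cells, Cd9 by platelets, eosinophils and macrophages, Fabp4 by macrophages, adipocytes and endothelium, and Ace by endothelium.

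Total counts were 29594291 to 38388421 per library. Levels are given as CPM, counts scaled to a common library size after TMM, a correction for RNA composition, or, where genes are compared with each other, as the authors' FPKM (fragments per kilobase of transcript, scaled to library depth). Differences are log2 fold changes from edgeR's quasi-likelihood test, fitted once to the 9 libraries together, with Benjamini-Hochberg adjustment over all 15447 genes, and a gene was called at an adjusted p under 0.05. The myeloid genes Csf1r and Spi1, which are not particular to monocytes, averaged 338 and 326 CPM over the 9 libraries. The classical monocyte gene Ly6c2 stood at 0.875 ± 0.217 CPM in LPS with octanal, 2.95 ± 4.29 in LPS and 140 ± 125 in untreated libraries (SD, n = 3 each). Untreated replicate 2 stood at 2.82 CPM, below LPS replicate 1 at 7.90. Ccr2 ranged over 0.658 to 2.85 CPM in LPS with octanal, 0.885 to 1.82 in LPS and 4.65 to 30.1 in untreated libraries. Some neutrophil transcripts exceeded Csf1r and Spi1, with S100a9 and S100a8 averaging 3904 and 2556 CPM over the 9 libraries. Others did not in every group: Ngp averaged 1506 CPM over the 9 libraries but 40.2 in LPS, where Csf1r averaged 231. T cell transcripts were present too.

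The members did not move together. For LPS with octanal against LPS, 0 of 9 were called, as were 0% of all genes. At an unadjusted p under 0.05, 3 members were higher and 1 was lower, where 22.3% of all genes passed that threshold (13.6% higher and 8.69% lower), and the DESeq2 Wald test called 4 (Spn, Itgal, Pou2f2 and Cd9), where it called 11.6% of all genes. Pou2f2 rose and Fabp4 fell in LPS with octanal against untreated, 2 of 9, beside 8.67% of all genes called (2.63% higher and 6.03% lower). In LPS against untreated, Spn and Pou2f2 rose and Itgal, Cd9 and Fabp4 fell, 5 of 9, beside 32.8% of all genes (15.2% higher and 17.6% lower). That count of members was 3 without untreated replicate 3 or without LPS replicate 1, beside 3980 of 15867 and 2387 of 15805 genes called. It was 2 without LPS replicate 3, beside 2926 of 15793 genes, where the full fit called 5072 of 15447. Values of log2(FPKM + 1) in place of counts gave 60.4% of all calls as higher, against 46.4% from counts, with a median log2 fold change of 0.11 over the 11498 genes tested that way. The median log2 fold change of the members was 0.40 in LPS with octanal against LPS, -0.030 in LPS with octanal against untreated and -0.028 in LPS against untreated, beside -0.048, -0.0065 and 0.011 for all genes tested. The first of these was 0.0155 when LPS replicate 1 was left out and 0.15 when LPS with octanal replicate 3 was.

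**Figure D1:**
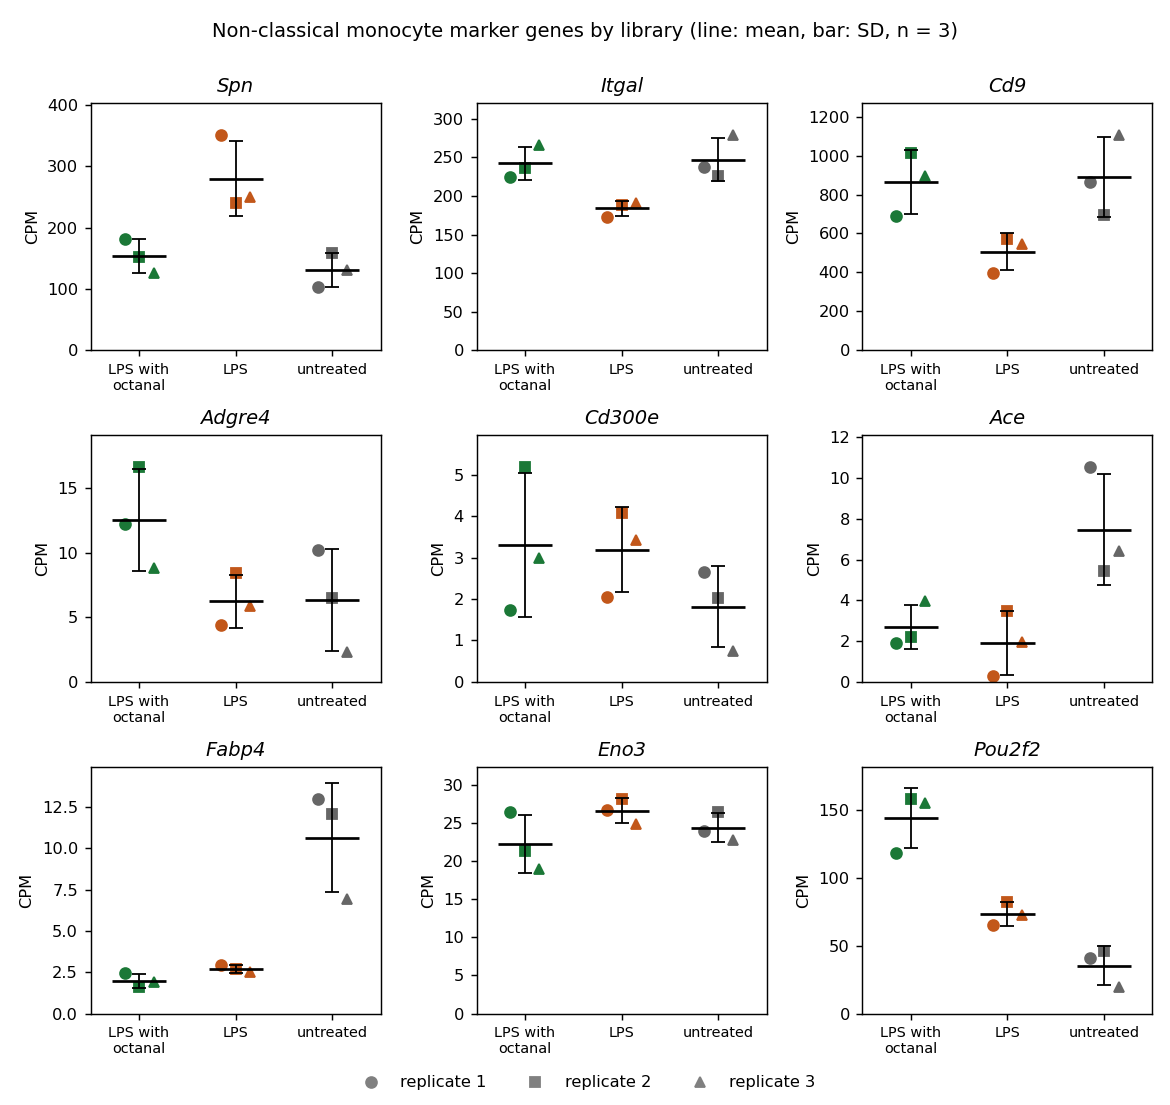
Level of each of the 9 marker genes in CPM (vertical axis, from 0) in every library of the LPS with octanal, LPS and untreated groups. Lines are means and bars SD over 3 libraries; Spn stands highest in LPS, Pou2f2 is highest in LPS with octanal and Fabp4 is highest in untreated libraries.

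The groups' libraries separated completely for 6 of 9 members in LPS with octanal against LPS (38.1% of all genes did so), for 3 of 9 in LPS with octanal against untreated (29.8%) and for 6 of 9 in LPS against untreated (51.5%). Per gene length, Cd9 was the most abundant member in every group, at 645 ± 111 FPKM in LPS with octanal, 403 ± 72.0 in LPS and 655 ± 120 in untreated libraries (SD, n = 3 each). At the other end, Ace was listed at 0.520 ± 0.230 FPKM in LPS with octanal, 0.383 ± 0.321 in LPS and 1.48 ± 0.545 in untreated libraries, and Cd300e at 1.44 ± 0.755 FPKM in LPS with octanal, 1.49 ± 0.470 in LPS and 0.797 ± 0.442 in untreated libraries. The order in between differed between groups. Pou2f2 stood at 21.6 ± 2.46 FPKM in LPS with octanal, above Eno3 at 14.7 ± 2.82 with no overlap. In untreated libraries it stood at 5.18 ± 2.31 FPKM, below Eno3 at 15.6 ± 2.09 and Fabp4 at 10.9 ± 3.66, and its range overlapped that of Fabp4. Spn stood above Itgal in LPS libraries, at 79.6 ± 18.7 and 37.7 ± 2.69 FPKM, while in LPS with octanal libraries their ranges overlapped and in untreated libraries Itgal stood higher without overlap.

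**Figure D2:**
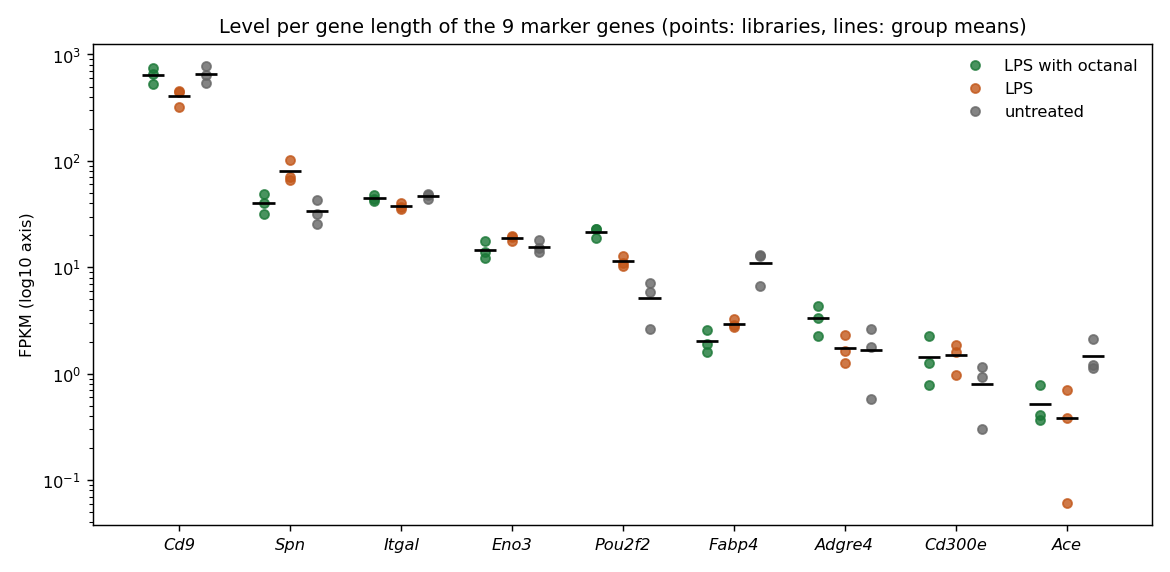
FPKM of the 9 members on a log10 axis, with a point per library and a line at each group's mean. Cd9 lies above all other members in all 9 libraries, and Pou2f2 and Fabp4 change places between untreated and LPS with octanal libraries.

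Spn, Cd300e and Adgre4 are shown with their promoters, since these held a match to a motif searched on both strands. Searched were 8 RefSeq promoter windows of 7 members, Ace having a pair (build GRCm38.p6, 250 bases before to 50 after a RefSeq start site). These start sites need not equal the gene starts given below. The Pou2f2 window (25132411 to 25132710) and the downstream Ace window (105974939 to 105975238) lie inside the gene, so the annotated start of Pou2f2 was not searched. Fabp4 and Itgal had no entry. Capitals mark the matches.
Spn, chr7:127137774-127138073, minus strand: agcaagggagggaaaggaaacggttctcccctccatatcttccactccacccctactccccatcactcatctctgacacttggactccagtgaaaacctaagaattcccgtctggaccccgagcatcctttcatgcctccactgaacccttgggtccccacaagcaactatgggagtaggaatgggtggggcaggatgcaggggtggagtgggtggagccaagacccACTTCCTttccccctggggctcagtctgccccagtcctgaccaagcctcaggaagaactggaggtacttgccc
Cd300e, chr11:115061990-115062289, minus strand: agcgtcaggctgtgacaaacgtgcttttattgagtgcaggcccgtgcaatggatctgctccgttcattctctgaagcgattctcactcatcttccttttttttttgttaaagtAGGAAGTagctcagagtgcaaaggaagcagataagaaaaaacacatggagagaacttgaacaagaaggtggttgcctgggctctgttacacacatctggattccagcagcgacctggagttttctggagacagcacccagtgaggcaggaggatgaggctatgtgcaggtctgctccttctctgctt
Adgre4, chr17:55749734-55750033, plus strand: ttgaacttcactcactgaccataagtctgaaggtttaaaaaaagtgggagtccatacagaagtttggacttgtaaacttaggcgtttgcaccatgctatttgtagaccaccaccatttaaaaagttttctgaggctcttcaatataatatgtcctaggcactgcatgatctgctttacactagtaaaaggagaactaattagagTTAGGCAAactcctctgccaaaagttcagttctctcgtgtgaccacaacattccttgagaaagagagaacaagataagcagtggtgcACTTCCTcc
The core of the motif of PU.1, the myeloid factor encoded by Spi1, AGGAAGT, was added to the search after the windows had been read. Counted from the window's start site as 0, it lay at -23 to -17 in Spn and at -137 to -131 in Cd300e. In Adgre4 it lay at 41 to 47. By the gene position given below for Cd300e, the match there lies inside the gene. The motif was in 3 of 8 member windows and 9.35% of all 32851 windows. The C/EBP motif TTGCNNAA was found at -46 to -39 in Adgre4, in 1 of 8 member windows and 10.8% of all, without overlap with the other match. The NR4A motif AAAGGTCA (1.51% of all windows), the octamer ATGCAAAT that OCT2 binds (1.74%) and an NF-kappaB consensus motif (0.411%) were in 0 of 8 member windows.

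Spn (ENSMUSG00000051457; GRCm38 chromosome 7, 127132232 to 127137823, minus strand, protein-coding) stood at 182, 153 and 126 CPM in LPS with octanal, 351, 240 and 250 in LPS and 103, 159 and 132 in untreated replicates 1, 2 and 3. All LPS libraries lay above all others, and LPS with octanal and untreated libraries overlapped. The mitochondrial share of counts was likewise highest in LPS libraries, at 2.31 to 3.10% in LPS with octanal, 4.12 to 7.66% in LPS and 2.20 to 3.99% in untreated libraries, and its part in the levels of Spn, Itgal and Cd9 was not tested. Spn rose in LPS against untreated cells by a log2 fold change of 1.10 (adjusted p = 0.00677, standard error 0.212). It was called in all 17 alternative analyses, with adjusted p between 2.78e-05 and 0.0273. In LPS with octanal against LPS its log2 fold change was -0.87 (adjusted p = 0.0747, standard error 0.211), and it passed by the DESeq2 Wald test (adjusted p = 0.00518) and by edgeR fitted to these 2 groups alone (adjusted p = 0.0438), which called 9.27% of all genes. Against untreated the log2 fold change was 0.23, with a 95% interval of -0.24 to 0.71.

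Summed T cell transcripts, like Spn, were highest in LPS libraries. The 10 T cell markers in the table summed to 641 to 1045 CPM in LPS with octanal, 1134 to 1395 in LPS and 115 to 626 in untreated libraries. Sums of these 10 in LPS with octanal lay above all untreated ones, and Spn overlapped between these groups. All 10 rose in LPS against untreated, such as Lck and Lat with log2 fold changes of 1.67 and 1.79. Of 8 NK cell markers 3 rose in that comparison, and their sum was 22.0 to 33.8, 41.2 to 47.4 and 6.05 to 23.9 CPM in LPS with octanal, LPS and untreated libraries. Their part in the level of Spn was not tested. Here, as for every member, fewer cells of a type and less RNA per cell cannot be told apart.

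Itgal (ENSMUSG00000030830, chromosome 7, 127296260 to 127335138, plus strand, protein-coding) is also expressed by T cells, and the part of T cells and other cell types in its level was not tested. It stood at 225, 236 and 266 CPM in LPS with octanal, 172, 189 and 190 in LPS and 237, 226 and 279 in untreated replicates 1, 2 and 3. The LPS libraries were the lowest 3, and those of the other groups overlapped. Itgal fell in LPS against untreated with a log2 fold change of -0.43 (adjusted p = 0.0210, standard error 0.113), but the call was lost without untreated replicate 3 (adjusted p = 0.0637) and without LPS replicates 1, 2 and 3 (0.0942, 0.0538 and 0.0631). For LPS with octanal against LPS its log2 fold change was 0.40 with a standard error of 0.113 (unadjusted p = 0.00642 in edgeR, not passing adjustment), and it passed by the DESeq2 Wald test (adjusted p = 0.0187) and with the 2 groups alone (adjusted p = 0.0469). Between LPS with octanal and untreated the fold was 0.980, with a 95% interval of 0.821 to 1.17.

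Cd9 (ENSMUSG00000030342; chromosome 6, 125460266 to 125494791, minus strand, protein-coding) had the same order of groups as Itgal. It stood at 689, 1011 and 896 CPM in LPS with octanal, 397, 572 and 548 in LPS and 865, 696 and 1105 in untreated replicates 1, 2 and 3. The LPS libraries again lay below all others. Cd9 fell in LPS against untreated with a log2 fold change of -0.81 (adjusted p = 0.0247, standard error 0.225). That call was lost without untreated replicates 1 (adjusted p = 0.0520) and 3 (0.0795), without LPS replicates 1 (0.0971) and 3 (0.0623) and on log2(FPKM + 1) with no filter (0.0552). In LPS with octanal against LPS the log2 fold change was 0.78 (adjusted p = 0.104, standard error 0.225), which passed by the DESeq2 Wald test (adjusted p = 0.0132). For LPS with octanal against untreated the fold was 0.974, with a 95% interval of 0.686 to 1.38. Platelet and megakaryocyte markers, of which 0 of 5 were called in any comparison, summed to 28.3 to 107 CPM in LPS with octanal, 53.0 to 113 in LPS and 76.7 to 117 in untreated libraries. Eosinophil markers summed to 0.859 to 1.73, 1.26 to 1.91 and 9.30 to 17.1 CPM in these groups, and 3 of 4 tested fell both in LPS with octanal and in LPS against untreated. The sums of macrophage and neutrophil markers, like Cd9, were lowest in LPS libraries. Single macrophage markers differed, as 4 of 12 had a positive change in LPS with octanal against LPS, with a median log2 fold change of -0.485. Of the neutrophil markers 14 of 14 did, with a median of 1.92. Macrophage markers summed to 874 to 1047 CPM in LPS with octanal, 470 to 803 in LPS and 1544 to 2635 in untreated libraries, and neutrophil markers to 6109 to 13730, 1895 to 2347 and 13997 to 27237 CPM. The part of these cell types in the level of Cd9 was not tested.

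**Figure D3:**
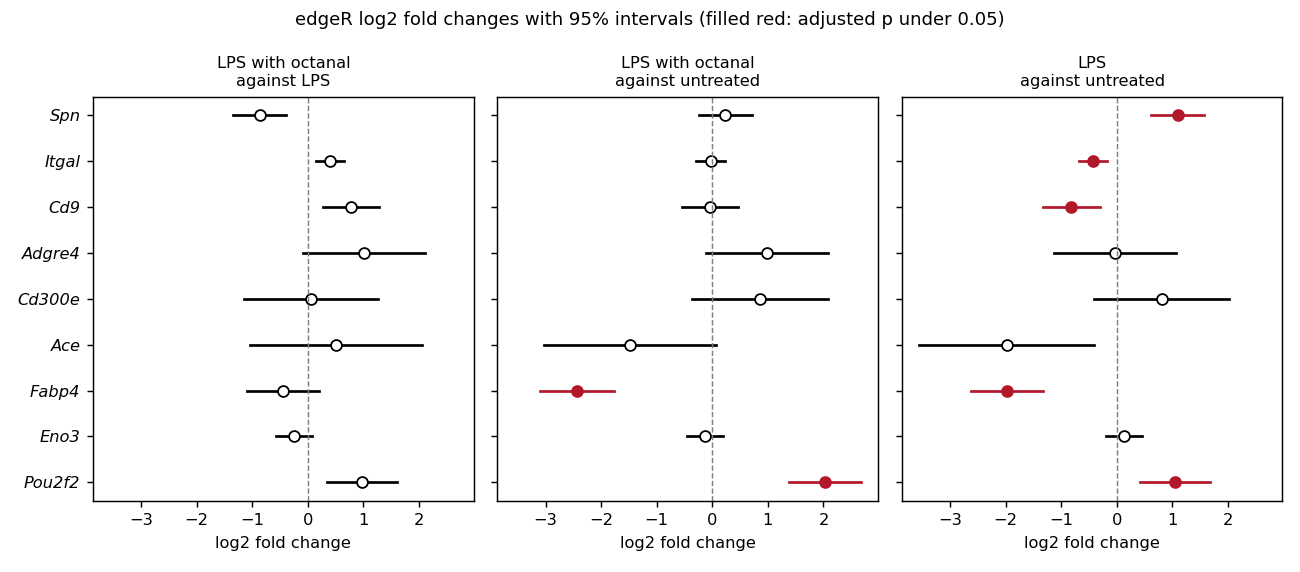
Log2 fold change (horizontal axis) of each member in the 3 comparisons, with 95% intervals from the edgeR fit; filled points passed at an adjusted p under 0.05. Intervals of Spn, Itgal and Cd9 leave out 0 in LPS against untreated and, on the opposite side, in LPS with octanal against LPS, where none passed adjustment.

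Adgre4 and Cd300e were scarce and variable. Adgre4 (ENSMUSG00000032915; chromosome 17, 55749984 to 55853662, plus strand, protein-coding) stood at 12.3, 16.7 and 8.79 CPM in LPS with octanal, 4.42, 8.42 and 5.87 in LPS and 10.2, 6.48 and 2.34 in untreated replicates 1, 2 and 3. Each LPS with octanal library lay above each LPS library, but untreated libraries spread over both. Its log2 fold change was 1.01 (95% interval -0.085 to 2.11, adjusted p = 0.254) for LPS with octanal against LPS, 0.98 (-0.11 to 2.08, adjusted p = 0.221) for LPS with octanal against untreated and -0.028 (-1.12 to 1.07, adjusted p = 0.971) for LPS against untreated. The sign of the last of these turned with FPKM values (0.10 on log2(FPKM + 1)), with a replicate block (0.12) and without untreated replicate 1 (0.47), LPS replicate 1 (0.16) or LPS replicate 3 (0.00446).

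Cd300e (ENSMUSG00000048498; chromosome 11, 115051917 to 115062177, minus strand, protein-coding) stood at 1.73, 5.18 and 3.00 CPM in LPS with octanal, 2.06, 4.07 and 3.43 in LPS and 2.66, 2.03 and 0.744 in untreated replicates 1, 2 and 3, which were 60, 193 and 91, 80, 130 and 124, and 99, 62 and 21 counts. All 3 groups overlapped. Its log2 fold change was 0.054 (95% interval -1.15 to 1.25, adjusted p = 0.958) for LPS with octanal against LPS, 0.86 (-0.36 to 2.08, adjusted p = 0.328) for LPS with octanal against untreated and 0.81 (-0.41 to 2.02, adjusted p = 0.275) for LPS against untreated. A 2-fold change in either direction lies within the first of these intervals.

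Fabp4 (ENSMUSG00000062515; chromosome 3, 10204088 to 10208576, minus strand, protein-coding) was lower in both treated groups than in untreated cells. It stood at 2.45, 1.58 and 1.91 CPM in LPS with octanal, 2.96, 2.69 and 2.49 in LPS and 12.99, 12.0 and 6.91 in untreated replicates 1, 2 and 3. No treated library reached the lowest untreated one. Fabp4 fell in LPS with octanal against untreated with a log2 fold change of -2.43 (adjusted p = 0.00359, standard error 0.294) and in LPS against untreated with one of -1.97 (adjusted p = 0.00221, standard error 0.288). Both calls held in all 17 alternative analyses. Between LPS with octanal and LPS the log2 fold change was -0.45 (95% interval -1.10 to 0.19, adjusted p = 0.369).

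Ace (ENSMUSG00000020681; chromosome 11, 105967945 to 105989964, plus strand, protein-coding) also stood highest in untreated libraries, with more spread. It stood at 1.93, 2.20 and 3.95 CPM in LPS with octanal, 0.309, 3.48 and 1.94 in LPS and 10.5, 5.43 and 6.45 in untreated replicates 1, 2 and 3. LPS replicate 1 was the lowest library, with 12 counts. All untreated libraries lay above all treated ones. Its log2 fold change was -1.48 (adjusted p = 0.199, standard error 0.684) for LPS with octanal against untreated and -1.98 (adjusted p = 0.0564, standard error 0.697) for LPS against untreated, where it passed in 3 of 15 alternatives. These were the fit without LPS replicate 2 (-2.77, adjusted p = 0.0387), limma on log2(FPKM + 1) with no filter (-0.85, adjusted p = 0.0288), a scale that understates changes of low genes, and the DESeq2 Wald test (adjusted p = 0.0114), which called 40.3% of genes. Between LPS with octanal and LPS it was 0.50 (95% interval -1.05 to 2.05, adjusted p = 0.684).

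The mean sums of macrophage and endothelial markers, like the means of Fabp4 and Ace, were highest in untreated libraries. The means of these sums and of Ace were lowest in LPS, and that of Fabp4 was lowest in LPS with octanal. Single markers differed from the sums. In LPS with octanal against LPS, 4 of 12 macrophage and 3 of 5 endothelial markers had a positive change, with median log2 fold changes of -0.485 and 0.31. Of the 12 macrophage markers, whose sums are given above for Cd9, 8 fell and 1 rose in LPS with octanal against untreated and 7 fell in LPS against untreated, where Cd68 and Apoe had log2 fold changes of -1.96 and -2.21. The 5 endothelial markers summed to 63.5 to 113 CPM in LPS with octanal, 33.1 to 66.2 in LPS and 111 to 184 in untreated libraries, and 3 fell in LPS against untreated, among them Vwf (-1.52) and Kdr (-2.51), and 1 fell in LPS with octanal against untreated. Their part in the levels of Fabp4 and Ace was not tested. The adipocyte marker Adipoq averaged 0.624 CPM over all libraries, and Plin1 had 0 counts in each of them, where 3 counts would be 0.0772 to 0.106 CPM.

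Eno3 (ENSMUSG00000060600; chromosome 11, 70657202 to 70662513, plus strand, protein-coding) varied least. It stood at 26.5, 21.3 and 19.0 CPM in LPS with octanal, 26.7, 28.2 and 24.9 in LPS and 23.9, 26.4 and 22.8 in untreated replicates 1, 2 and 3, and all groups overlapped. Its fold was 0.837 (95% interval 0.669 to 1.05, adjusted p = 0.315) for LPS with octanal against LPS, 0.914 (0.730 to 1.14, adjusted p = 0.587) for LPS with octanal against untreated and 1.09 (0.873 to 1.36, adjusted p = 0.524) for LPS against untreated. A 2-fold change thus lies outside all 3 intervals. Skeletal muscle markers, of which 1 of 3 tested rose in LPS against untreated, summed to at most 6.92 CPM in any library.

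Pou2f2 (ENSMUSG00000008496; chromosome 7, 25087344 to 25179726, minus strand, protein-coding) was measured in 3 separate ranges. It stood at 119, 159 and 155 CPM in LPS with octanal, 65.0, 82.5 and 72.8 in LPS and 40.7, 46.2 and 19.5 in untreated replicates 1, 2 and 3. The 3 groups did not overlap. Pou2f2 rose in LPS with octanal against untreated by a log2 fold change of 2.02 (adjusted p = 0.00616, standard error 0.286), a call that held in all 17 alternative analyses. In LPS against untreated it rose by 1.05 (adjusted p = 0.0219, standard error 0.280), with the call lost without LPS replicates 2 (0.92, adjusted p = 0.0701) and 3 (1.04, adjusted p = 0.0547). The log2 fold change of LPS with octanal over LPS was 0.97 (adjusted p = 0.101, standard error 0.278), which passed by the DESeq2 Wald test (adjusted p = 0.00896) and with the 2 groups alone (adjusted p = 0.0326). The 7 B cell markers in the table summed to 79.2 to 112 CPM in LPS with octanal. Their sum was 141 to 198 CPM in LPS and 110 to 373 in untreated libraries, and 4 fell in LPS with octanal against untreated. The part of B cells in the level of Pou2f2 was not tested.

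Untreated replicate 3 was the lowest untreated library for Pou2f2, Adgre4, Fabp4, Cd300e and Eno3 and the highest for Itgal and Cd9. LPS replicate 1 was the lowest LPS library for Ace, Itgal, Pou2f2, Adgre4, Cd9 and Cd300e and the highest for Spn and Fabp4.

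The other genes known from non-classical monocytes were followed in a list of 13, all tested. For LPS with octanal against LPS 0 were called and 10 of 13 changes were positive, with a median log2 fold change of 0.49. Against untreated, Cd274 (PD-L1, 0.77) and Lair1 (a collagen receptor that inhibits leukocytes, 2.17) rose in LPS with octanal, and the scavenger receptor gene Cd36 (-1.79), the ribonuclease gene Ear2 (-2.84) and the Wnt pathway factor gene Tcf7l2 (-1.68) fell, with a list median of -0.15. Of these 5 calls, that of Lair1 held in all 9 fits that left out a library, that of Cd36 in 8, Ear2 in 5, Cd274 in 2 and Tcf7l2 in 1. In LPS against untreated Lair1 (1.11) and the adhesion molecule gene Pecam1 (0.94) rose, while Cd36 (-2.10), Ear2 (-3.33), Ceacam1 (-3.01), the integrin gene Itgax (-1.38) and the Fc receptor gene Fcgr4 (-1.15) fell, with a median of -0.68. Of these 7 calls, those of Lair1, Cd36, Ear2 and Ceacam1 held without each library, those of Pecam1 and Itgax were lost without LPS replicate 1 and that of Fcgr4 without LPS replicate 1 or 3. Ear2 and Ceacam1 have near-identical copies, and their counts are uncertain for that reason. Cx3cr1, the fractalkine receptor that marks these cells, averaged 6.45 ± 0.362 CPM in LPS with octanal, 4.45 ± 2.85 in LPS and 7.13 ± 3.38 in untreated libraries and was not called.

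Of 11 regulators of the formation and survival of these cells, 0 were called in LPS with octanal against LPS, with a median log2 fold change of 0.45. Cebpb, a leucine zipper factor that mouse non-classical monocytes need, rose in LPS with octanal against untreated by 0.92 (adjusted p = 0.0131), and Irf8, a factor of the monocyte lineage, fell (-1.33, adjusted p = 0.0117, and 0.0516 without LPS with octanal replicate 2). The median there was -0.09. In LPS against untreated Klf2, a factor of quiescent leukocytes, rose by 1.56 (adjusted p = 0.0116), and Spi1 (-0.87, adjusted p = 0.00726), Irf8 (-1.57, adjusted p = 0.00208) and Notch2 (-0.76, adjusted p = 0.00454), the receptor whose ligand Dll1 drives conversion of classical monocytes, fell, with a median of -0.57. Nr4a1 stood at 36.5, 57.9 and 61.6 CPM in LPS with octanal, 29.9, 36.2 and 26.8 in LPS and 27.4, 41.9 and 14.8 in untreated replicates 1, 2 and 3. LPS with octanal libraries lay above all LPS libraries and overlapped the untreated ones, and Nr4a1 was not called (adjusted p = 0.238 against LPS and 0.137 against untreated).

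**Figure D4:**
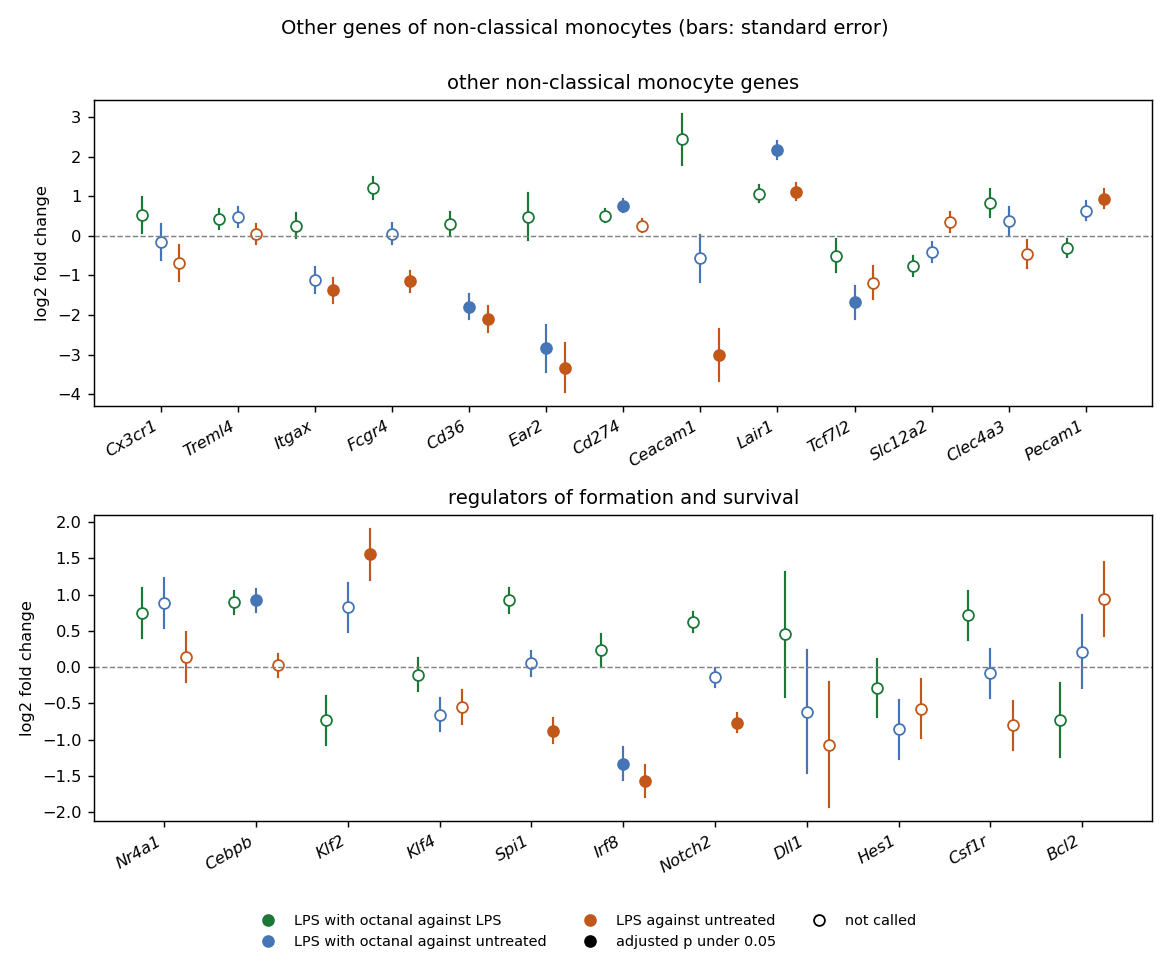
Log2 fold changes (vertical axis, bars are standard errors) of the other non-classical monocyte genes (upper panel) and of regulators of these cells (lower panel) in the 3 comparisons; filled points passed at an adjusted p under 0.05. No gene passed in LPS with octanal against LPS, and Lair1 passed in both comparisons with untreated cells.

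Classical monocyte markers were followed in a list of 12. Of these, 0 were called in LPS with octanal against LPS (median 0.72), 8 fell in LPS with octanal against untreated (median -1.39), and 10 fell and 1 rose in LPS against untreated (median -2.53). Of these 8 and 11 calls, 1 (Chil3) and 7 held in all 9 fits that left out a library. They summed to 2435 to 3721 CPM in LPS with octanal, 1338 to 1590 in LPS and 4223 to 8131 in untreated libraries. In LPS against untreated Itgam had a log2 fold change of -1.93 and Chil3, which has the near-identical copy Chil4, one of -5.13. Among neutrophil markers, 13 of 14 fell in LPS against untreated, with S100a9 and S100a8 at -3.73 and -2.48. Of the 14, 5 fell in LPS with octanal against untreated. Conventional dendritic cell markers, mostly Ccr7, summed to 424 to 917, 827 to 924 and 236 to 485 CPM, and 1 of 7 rose in LPS against untreated. The part of other cell types in the members' levels was not tested.

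**Figure D5:**
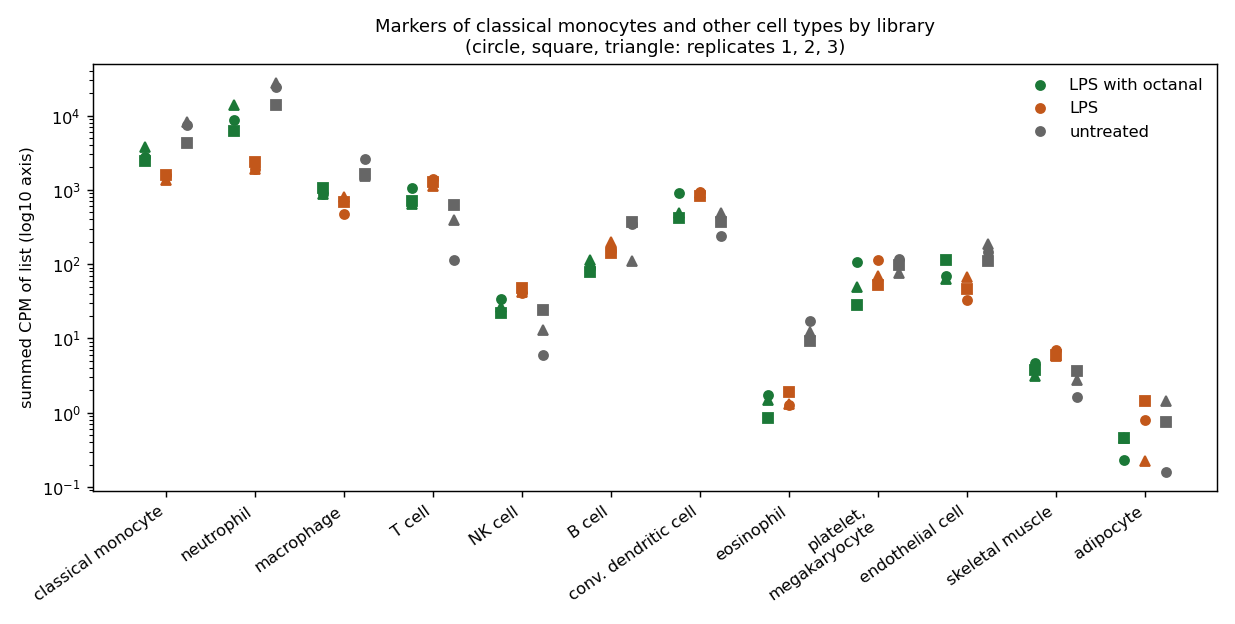
Summed CPM (log10 axis) of marker lists of classical monocytes and of 11 other cell types in every library of the LPS with octanal, LPS and untreated groups. Neutrophil and classical monocyte sums are lowest in LPS libraries, and T cell sums are highest there.

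Over the 9 libraries, the genes whose log2 CPM followed a member most closely were sought among 8688 named genes of at least 10 CPM, by the root mean square difference of centred values. For Spn these were S1pr4, a sphingosine 1-phosphate receptor of leukocytes, at 0.0918 on the log2 scale, and Pym1 at 0.106, against an SD of Spn itself of 0.56. Cd9, with an SD of 0.47, was followed by the adaptor gene Skap2 (0.0583) and by Lamtor1 (0.0617), and Itgal, with an SD of 0.23, by Arhgef2 (0.0489) and Srpk2 (0.0577). The nearest to Pou2f2 (SD 0.97) were Slc43a3 (0.314) and Lair1 (0.317), and the nearest to Adgre4 (SD 0.77) were Tma16 (0.341) and Adgre1 (0.387), which encodes F4/80. Fabp4 (SD 1.02) was nearest to Cttnbp2nl (0.262) and Asph (0.263), Ace (SD 1.10) to Plxnb2 (0.405) and Sort1 (0.421), Cd300e (SD 0.65) to Ndor1 (0.305) and Plekha8 (0.342), and Eno3 (SD 0.18) to Helq (0.0663) and Urgcp (0.0682). The genes share libraries and depth, and the closeness is a description of these 9 libraries.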

How the data were processed

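RNA of 9 libraries of spleen-derived mouse monocytes was measured by mRNA sequencing. For every gene row the authors deposited raw counts, which are whole numbers, and FPKM values, which are scaled to length and depth; the file headers name both. The submitters' processing notes give GRCm38 as the build. Aligner, counter and strand setting were not given in the sources used here. Of 26770 gene rows, 22021 of 22035 with Ensembl identifiers matched GENCODE M21, the source of positions, and 10 lines of annotation text without values were left out. Antisense or intronic partners of Pou2f2, Ace, Cd9 and Adgre4 have no rows in the table.

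The counts were fitted with edgeR 4.0.16 under R 4.3.3 (TMM, filterByExpr, quasi-likelihood test, all 9 libraries in 1 fit with a mean per group). Alternatives used DESeq2 1.42.0 or its size factors, no filter, a replicate block, the 2 groups alone, limma 3.58.1 on log2 FPKM with a pseudocount of 1 or 0.1, and each library left out. The fit was tested on simulated counts. The counts of replicates of a group differed beyond counting noise (chi-square over degrees of freedom 42.9 to 142), so no library was a copy of another, and whether they are separate cultures or animals is not shown by this. The members and gene lists were chosen with earlier results of these data known. All members are described. Genes named from other lists were called in a comparison, are among the 2 of highest mean CPM in a list, or are Nr4a1, Cx3cr1, Dll1 or Plin1. Of the T and B cell markers Trac, Trbc2 and Ighm are not analysed here.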

Additional observations from a re-analysis of the deposited data

How the results depend on the processing

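Of the members, Spn and Fabp4 in LPS against untreated and Pou2f2 and Fabp4 in LPS with octanal against untreated kept direction and call in all 17 alternatives. The number of genes called in LPS with octanal against LPS, 0 of 15447 by edgeR (3450 at an unadjusted p under 0.05), was 279 without a filter, 1792 with the DESeq2 Wald test (4 members), 155 by limma on log2(FPKM + 0.1), 1380 with the 2 groups alone (3 members) and 0 to 584 when a library was left out, with 109 and 527 without untreated replicates 1 and 2, 584 and 3 without LPS with octanal replicates 1 and 2 and 0 without each of the others. In each of these 9 fits 0 members were called. In LPS with octanal against untreated it was 2810 with DESeq2, 404 with the 2 groups alone and 298 to 2137 when a library was left out, against 1339: 623 and 2137 without untreated replicates 1 and 2, 810 and 787 without LPS replicates 2 and 3 and 789, 298 and 670 without LPS with octanal replicates 1, 2 and 3. In LPS against untreated it was 2387 to 5658 when a library was left out, against 5072, with 2387, 3284 and 2926 without LPS replicates 1, 2 and 3, and 2 to 5 members were called.

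The members' median log2 fold change went to 0.18 on log2(FPKM + 1) and 0.26 on log2(FPKM + 0.1) in LPS against untreated, with -0.34 to 0.10 over libraries left out. In LPS with octanal against LPS it went to 0.10, 0.0702 and, without a filter on FPKM, 0.15, with 0.0155 to 0.49 over libraries left out, and in LPS with octanal against untreated to -0.0780 to 0.18 over libraries left out. Reversed signs, all of values not called, were those of Adgre4 in LPS against untreated (0.12 with a replicate block, 0.10 on log2(FPKM + 1) with or without a filter, 0.24 on log2(FPKM + 0.1), -0.43 to 0.47 over libraries left out) and of Cd300e in LPS with octanal against LPS (-0.0097 with a replicate block, -0.0553 on log2(FPKM + 1) with or without a filter, -0.11 on log2(FPKM + 0.1), -0.41 to 0.40). In LPS with octanal against untreated Itgal ranged over -0.11 to 0.0906 and Cd9 over -0.20 to 0.18 with libraries left out. The causes were not tested.

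Replicate numbers did not pair the libraries: deviations of same-numbered libraries correlated at -0.12 to 0.27, with 2 of 9 pairs over 0.1, and 2 of 9 libraries correlated best with their own number. With a replicate block the calls were 4257, 0 and 923 in LPS against untreated, LPS with octanal against LPS and LPS with octanal against untreated. The block changed no call of a member. Ace, under a mean of 1 FPKM, was left out of the 2 filtered FPKM analyses. Ace and Cd300e had the fewest counts, 12 to 392 and 21 to 193 per library.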
